A study of Mus musculus with 6 samples.

Results

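Eph receptors were examined in mouse embryos at E13.5 (E stands for embryonic day) with and without the transcription factor Olig2. The group of 10 receptor genes comprised 5 of the A class (Epha3, Epha4, Epha5, Epha7 and Epha8) and 5 of the B class (Ephb1, Ephb2, Ephb3, Ephb4 and Ephb6). Members were all probe sets, apart from array controls, that the platform's annotation ties to exactly 1 of these symbols, which gave 22 probe sets of 9 genes among 45037 probe sets of 18193 genes in all. Ephb2 had no probe set under its symbol in that annotation and was not analysed here. The A class held 18 of the 22 probe sets and the B class 4, with 1 each for Ephb1, Ephb3, Ephb4 and Ephb6.

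The study compared Olig2-/- with Olig2+/+ embryos, and its title names the prethalamus and thalamocortical projections. The dissected tissue is named ventral forebrain in the design text and ventral telencephalon in the labels. Each array carried labelled RNA pooled from 3 brains. Of 5 replicates stated per genotype, 3 arrays each were available and analysed, replicates 2, 4 and 5 of the knockout and 1, 4 and 5 of the wild type. The sources used here give neither the strain, nor the sex of the embryos, nor the way the Olig2 allele was made, and they name no Cre line, transgene or drug.

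Eph receptors are cell-surface tyrosine kinases that bind ephrins on neighbouring cells. A-class receptors mainly bind ephrin-A ligands, which are held to the membrane by a lipid anchor, and B-class receptors mainly bind ephrin-B ligands, which span it. Contact can repel or attach the cell that carries the receptor, and the ligand can also signal into its own cell. In the forebrain these proteins are known for sorting cells at boundaries and for steering axons, those between thalamus and cortex among them.

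Olig2 was lower on every knockout array than on any wild-type array (7.59 ± 0.15 against 8.28 ± 0.12, log2, SD, n = 3 each), which checks the labels. Olig1, its chromosomal neighbour, was higher (8.35 ± 0.29 against 6.65 ± 0.46). Array medians lay between 3.14 and 3.19 on the log2 scale. Knockout replicate 2 and wild-type replicate 4 correlated with each other (Pearson r = 0.994 over 22565 probe sets) more closely than either did with an array of its own genotype, and wild-type replicate 1 had the lowest correlations with other arrays, down to 0.974. Results are therefore also given without these arrays where they move. Among tissue markers, Dlx2 read 9.97 to 10.80 and Lhx6 8.50 to 9.10 in the wild type, and Nkx2-1 did not pass the filter on dim probe sets. Markers of the thalamus were also measured, with Lhx9 at 8.85 to 9.42 in the wild type. As a bulk sample, such tissue cannot show whether a lower value means fewer cells of a type or less RNA per cell.

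A probe set was kept if it lay above its array's median on at least 3 of the 6 arrays, whatever their genotype. This kept 20 of the 22 Eph receptor probe sets and left out Epha8 and 1 of 5 probe sets of Epha4. Genotypes were compared with limma (a linear model with a moderated variance) over all 22565 kept probe sets, with Benjamini-Hochberg adjustment and a threshold of 0.05. None of the 20 passed, as was the case for all kept probe sets (0 of 22565, 0%), while 2121 of them (9.4%) had an unadjusted p under 0.05. Olig2 itself and Olig1 did not pass either (limma's adjusted p = 0.511 for each), so falling short of this threshold does not show that a gene is unchanged. Of the 20, 5 had an unadjusted p under 0.05 and were higher in the knockout, against 4.98% of all kept probe sets, and 0 were lower, against 4.42%. The 5 were the 4 probe sets of Epha3 and 1 of Epha5. With 6 arrays the precision is limited, and because the labels do not say whether the pools came from separate litters, the p-values measure only the spread between these pools.

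**Figure D1:**
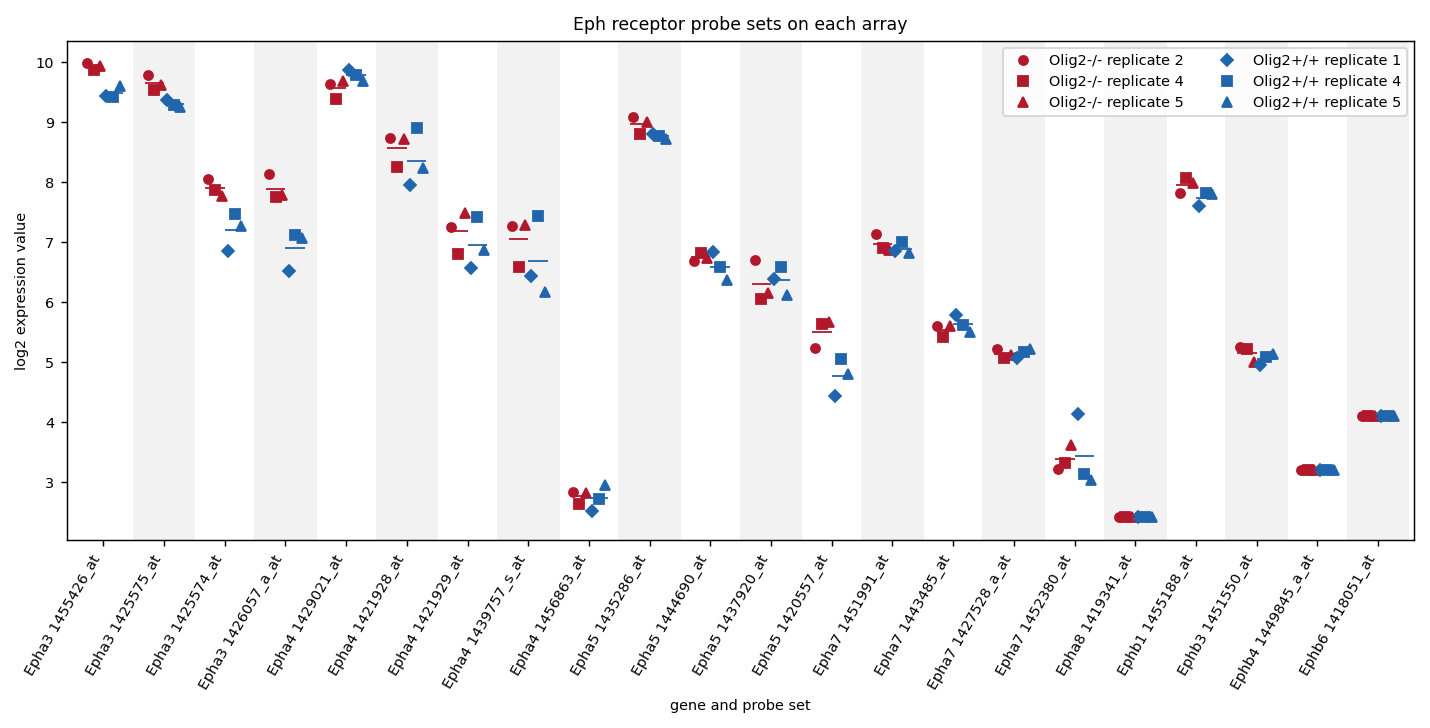
Log2 expression value (vertical axis) of each of the 22 Eph receptor probe sets (horizontal axis, by gene and in order of brightness) on the 6 arrays. Red symbols are Olig2-/- arrays, blue symbols are Olig2+/+ arrays, the shape gives the replicate number and bars are means of 3 arrays. Red lies above blue at all 4 probe sets of Epha3, and the probe sets of Epha8, Ephb4 and Ephb6 have the same value on every array.

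Epha3, a receptor for ephrin-A ligands such as ephrin-A5, was higher in the knockout at each of its 4 probe sets. At the brightest, 1455426_at, knockout replicates 2, 4 and 5 read 9.98, 9.87 and 9.93, and wild-type replicates 1, 4 and 5 read 9.44, 9.41 and 9.61. The knockout arrays were the 3 highest, with 0.26 between the nearest pair. The means were 9.93 ± 0.05 and 9.49 ± 0.11 (log2, SD, n = 3 each), or 1.36-fold more in the knockout. Limma gave a difference of 0.44 on the log2 scale (SE 0.08, 95% interval 0.24 to 0.64; adjusted p = 0.511). Among 10630 genes, each at its brightest kept probe set, 212 (1.99%) were higher by at least this much, and Epha3 was 27th by limma's p, so its place was higher by p than by size. Epha3 and Olig2 are both on chromosome 16, as is Ephb3, whose difference was 0.10 with overlapping groups. Whether sequence carried along with the Olig2 allele has a part in the Epha3 difference was not tested.

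The other probe sets of Epha3 differed by the same sign and by unequal amounts. Probe set 1425575_at read 9.78, 9.53 and 9.62 in the knockout and 9.37, 9.28 and 9.25 in the wild type, a log2 difference of 0.34 (95% interval 0.13 to 0.56). Probe set 1425574_at read 8.05, 7.86 and 7.77 against 6.85, 7.47 and 7.27, a difference of 0.70 (0.27 to 1.13). Probe set 1426057_a_at, whose suffix marks probes shared by alternative transcripts of a gene, read 8.14, 7.75 and 7.78 against 6.52, 7.11 and 7.06. Its difference of 0.99 (0.51 to 1.47, 1.99-fold) was the largest of the 20 probe sets. The groups did not overlap at any of the 4, and wild-type replicate 1 was lowest at the 2 probe sets with the larger differences. Without wild-type replicate 1 these 2 differences were smaller, 0.53 at 1425574_at and 0.80 at 1426057_a_at. The annotation ties 1425574_at and 1425575_at to 1 source sequence, yet their differences were 0.70 and 0.34.

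Lack of overlap in the higher direction was found for 8.96% of all kept probe sets and in the lower direction for 7.25%. Among 525 genes with exactly 4 kept probe sets, 2 (0.381%) were apart and higher at all 4, Epha3 and Tmem255a, and 1, Tcf7l2, was apart and lower at all 4. Probe sets of 1 gene share the same RNA, so they are not replicates of the genotypes. Between knockout replicate 2 and wild-type replicate 4, the arrays most alike, Epha3 was higher in the knockout by 0.57, 0.50, 0.58 and 1.02, in order of brightness. With both arrays left out the differences were 0.38, 0.27, 0.76 and 0.97.

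The promoter of Epha3 is shown because this receptor was apart between genotypes at all its probe sets, and that of Ephb3 because it was the only member with the palindrome CAGCTG, a form of the E-box that basic helix-loop-helix proteins such as Olig2 are known to bind. Each window is the 250 bases before the start of the gene from RefSeq on build GRCm38.p6, in the direction of transcription, at chr16:63864176-63864425 (minus strand) for Epha3 and chr16:21204545-21204794 (plus strand) for Ephb3. Capitals mark matches to CANNTG, the general E-box.
Epha3: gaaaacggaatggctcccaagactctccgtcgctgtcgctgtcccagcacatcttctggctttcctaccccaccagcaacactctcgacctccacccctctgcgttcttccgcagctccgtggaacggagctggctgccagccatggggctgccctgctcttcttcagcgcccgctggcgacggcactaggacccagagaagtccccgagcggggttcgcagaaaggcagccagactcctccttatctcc
Ephb3: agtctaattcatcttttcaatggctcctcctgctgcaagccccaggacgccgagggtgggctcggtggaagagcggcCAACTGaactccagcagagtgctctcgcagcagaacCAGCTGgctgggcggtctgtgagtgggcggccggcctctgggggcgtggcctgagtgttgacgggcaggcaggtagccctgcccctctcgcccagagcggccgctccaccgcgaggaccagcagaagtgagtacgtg

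All 10 receptor genes had at least 1 such window, 11 in all because Epha7 had 2 starts. CANNTG is the same read on either strand and includes CAGCTG and CAGATG. It occurred in 5 of the 11 windows, those of Epha8, Ephb2, Ephb3, Ephb4 and Ephb6, against 66.2% of 32851 windows of this length. CAGCTG occurred in 1 (13.0% of all windows), 137 bases before the start of Ephb3, and CAGATG or its complement CATCTG in 0 (14.4%). No match to CANNTG was found for Epha3, Epha4, Epha5, Epha7 or Ephb1, which says only that these letters are not in these windows. The windows were rich in G and C, with a median of 66.0% against 52.4% over all windows.

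**Figure D2:**
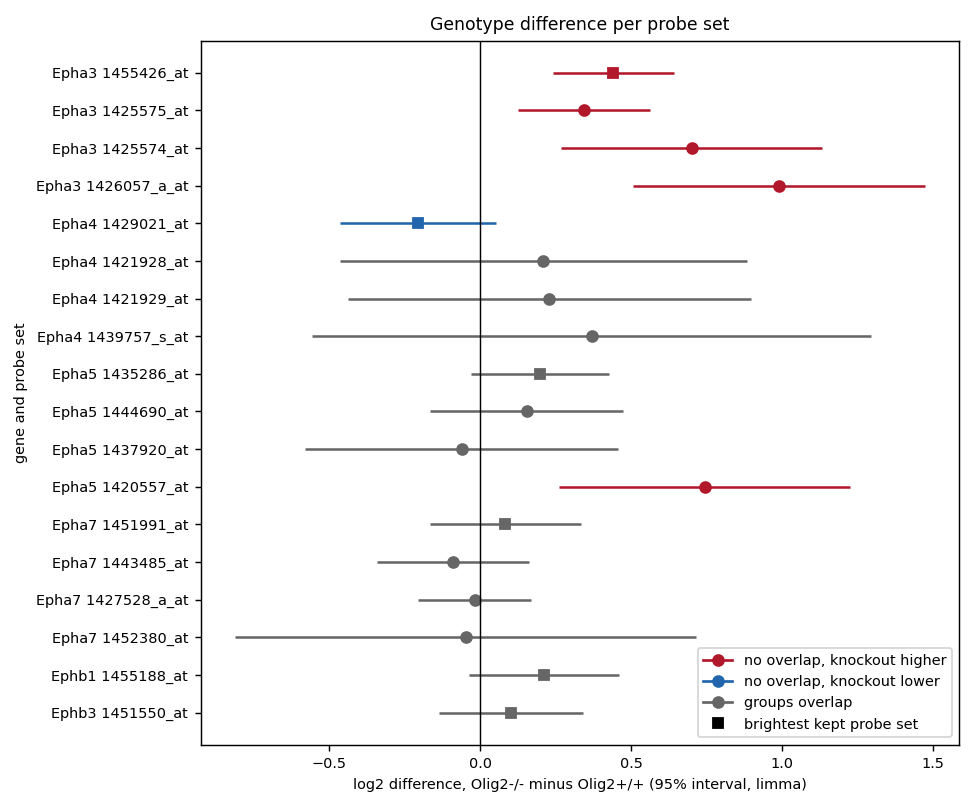
Log2 difference between Olig2-/- and Olig2+/+ arrays with limma's 95% interval (horizontal axis) for the 18 kept Eph receptor probe sets whose values varied (vertical axis). Red marks probe sets whose knockout arrays all lie above the wild-type arrays, blue the reverse and grey overlap, and squares are the brightest kept probe set of a gene. Red marks stand at all 4 probe sets of Epha3 (0.34 to 0.99) and at 1 of Epha5 (0.74).

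Epha4, which is unusual in binding ligands of both classes, gave readings of opposite sign. Its brightest probe set, 1429021_at, read 9.64, 9.39 and 9.68 in the knockout and 9.87, 9.78 and 9.69 in the wild type. The knockout arrays were the 3 lowest, by 0.003 at the nearest pair, and the difference was -0.21 on the log2 scale (SE 0.11, 95% interval -0.47 to 0.05, limma's adjusted p = 0.515). The other 3 kept probe sets were higher on average in the knockout, by 0.21, 0.23 and 0.37, with wide intervals that include 0.

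Those 3 probe sets of Epha4 varied more between arrays of 1 genotype than between the genotype means. Probe set 1421928_at read 8.73, 8.25 and 8.72 in the knockout and 7.95, 8.90 and 8.23 in the wild type. At 1421929_at the knockout read 7.26, 6.81 and 7.49 and the wild type 6.57, 7.43 and 6.87. Wild-type replicate 4 was the highest of its group at all 3 and the highest array of all 6 at 1421928_at and 1439757_s_at. At 1439757_s_at, whose suffix marks probes that can match transcripts of more than 1 gene, the knockout read 7.26, 6.59 and 7.29 and the wild type 6.43, 7.43 and 6.17. Without wild-type replicate 4 the 3 differences were 0.48, 0.46 and 0.75, and without wild-type replicate 1 they were 0.00, 0.04 and 0.25. At the brightest probe set the difference lay between -0.26 and -0.12 with any array left out. The mean of the 4 kept probe sets was 0.15 higher in the knockout, so the sign for Epha4 depends on which probe set stands for the gene. The fifth probe set, 1456863_at, was dim (2.52 to 2.95) and was not tested.

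Epha5, another receptor for ephrin-A ligands, was higher at 3 of its 4 probe sets, 1 of them with groups apart. At the brightest, 1435286_at, the knockout read 9.09, 8.80 and 9.00 and the wild type 8.80, 8.76 and 8.73. Knockout replicate 4 lay 0.003 below wild-type replicate 1, so the groups overlapped by that amount. The difference was 0.20 (SE 0.09, 95% interval -0.03 to 0.43, limma's adjusted p = 0.512). The dimmest, 1420557_at, read 5.23, 5.63 and 5.67 against 4.44, 5.05 and 4.80, with groups apart and a difference of 0.74 (0.26 to 1.23, limma's adjusted p = 0.511). The remaining probe sets, 1444690_at (6.69, 6.81 and 6.74 against 6.83, 6.58 and 6.36) and 1437920_at (6.71, 6.05 and 6.14 against 6.39, 6.58 and 6.13), differed by 0.15 and -0.06, with overlapping groups. Both values moved when single arrays were left out. With any array left out, 1444690_at ran from 0.04 (without wild-type replicate 5) to 0.27 (without wild-type replicate 1). The sign of 1437920_at changed, from -0.27 without knockout replicate 2 to 0.06 without knockout replicate 4, so the count of 3 holds for the 6 arrays together.

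Epha7, a receptor known for truncated forms and for expression in thalamus and cortex, showed no difference beyond the spread between arrays at any probe set. Its brightest probe set, 1451991_at, read 7.14, 6.90 and 6.87 in the knockout and 6.86, 6.99 and 6.81 in the wild type, a difference of 0.08 (95% interval -0.17 to 0.33, limma's adjusted p = 0.728). The groups overlapped at all 4 probe sets, whose differences ran from -0.09 to 0.08. At 1427528_a_at the interval of -0.21 to 0.17 was the narrowest of the 4. At 1452380_at wild-type replicate 1 stood at 4.13 with the other arrays between 3.04 and 3.62, so its interval was wide (-0.81 to 0.71). Epha8 had 1 probe set at 2.41 on all 6 arrays, below the median of each, and its level in this tissue could not be compared.

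**Figure D3:**
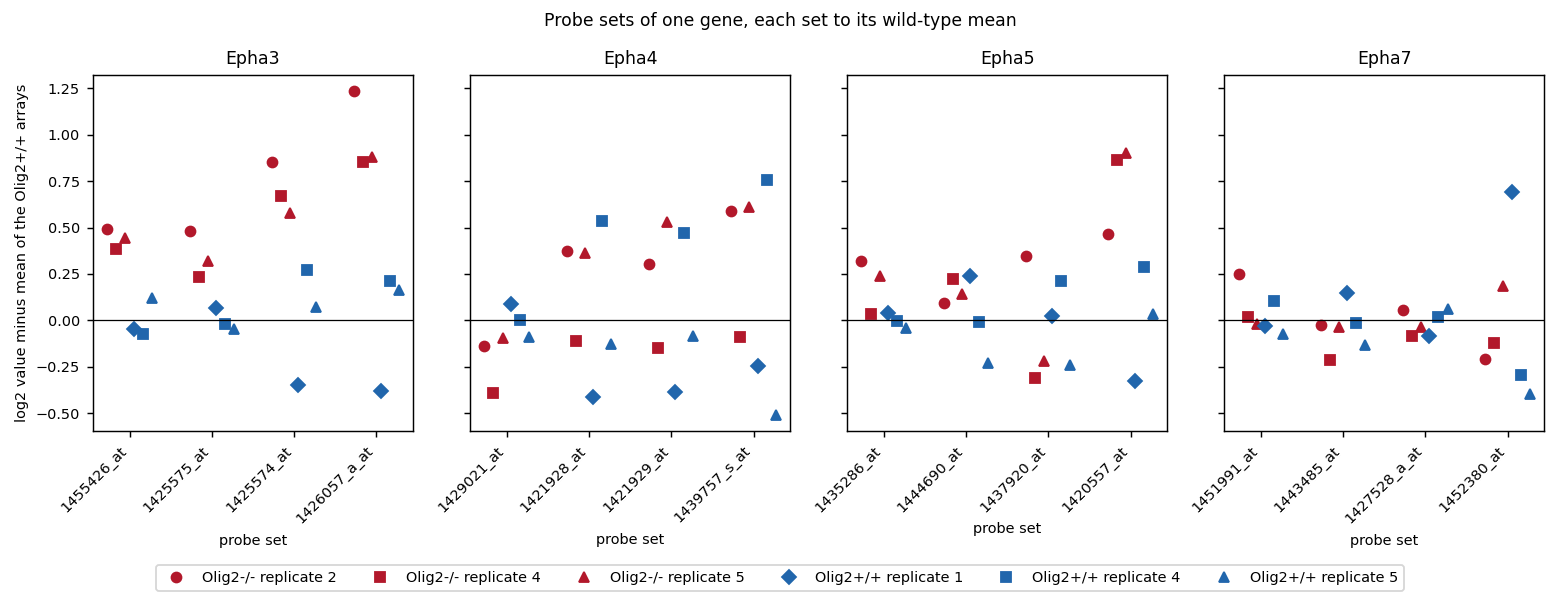
Log2 value minus the mean of the 3 Olig2+/+ arrays (vertical axis) at the 4 kept probe sets (horizontal axis) of Epha3, Epha4, Epha5 and Epha7, with 1 symbol per array. At Epha3 the red Olig2-/- symbols lie above the blue Olig2+/+ symbols at every probe set. The Olig2+/+ replicate 4 square lies above all Olig2-/- arrays at 1421928_at and 1439757_s_at of Epha4 and among them at 1421929_at.

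Whether probe sets of 1 gene differed in their genotype difference was tested directly. For 12 pairs, the brightest kept probe set and each other kept probe set of Epha3, Epha4, Epha5 and Epha7, the gap between the pair was taken within each array and compared between genotypes with a two-sided exact permutation test, whose smallest possible p for 3 against 3 is 0.1. The widest differences were 0.58 for 1439757_s_at of Epha4 (exact p = 0.4), 0.55 for 1426057_a_at of Epha3 (exact p = 0.1) and 0.54 for 1420557_at of Epha5 (exact p = 0.2). With any array left out they ranged from 0.37 (without wild-type replicate 5) to 0.95 (without wild-type replicate 4) for the Epha4 pair. For the Epha3 pair the range was 0.38 to 0.69 and for the Epha5 pair 0.36 to 0.75, both lowest without wild-type replicate 1. The order of these differences is not stable. Without knockout replicate 2 the Epha5 pair was widest, at 0.75 against 0.50 for the Epha4 pair. Adjusted over the 12 pairs, the exact permutation p was 0.48 or more for each. Only the Epha3 pair had gaps that did not overlap, -2.16 to -1.84 in the knockout and -2.92 to -2.30 in the wild type. Gaps that did not overlap were found for 19.3% of the 8732 such pairs of all genes.

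Of the B class, Ephb1 and Ephb3 varied between arrays. Ephb1, which directs retinal axons at the optic chiasm, read 7.82, 8.06 and 7.98 in the knockout and 7.60, 7.82 and 7.80 in the wild type at its single probe set. The groups overlapped by 0.002, since knockout replicate 2 lay just below wild-type replicate 4. The difference was 0.21 (SE 0.10, 95% interval -0.04 to 0.46, limma's adjusted p = 0.513), and 0.32 with those 2 arrays left out. Ephb3, which acts with Ephb2 in commissural axons, read 5.25, 5.22 and 5.00 against 4.95, 5.08 and 5.13, a difference of 0.10 (95% interval -0.14 to 0.34, limma's adjusted p = 0.652) with overlapping groups.

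Ephb4, the receptor of venous endothelium, and Ephb6, a receptor that lacks kinase activity, passed the filter but carried no information on the genotypes. Ephb4 was listed at 3.19 and Ephb6 at 4.10 on all 6 arrays. Such constant values, with a range under 0.01, made up 3 of the 22 Eph receptor probe sets, 89 of the 22565 kept probe sets (0.394%) and 13132 of all 45037 (29.2%). The endothelial marker Cdh5 did not pass the filter (2.49 to 2.95 over the 6 arrays). Pecam1 read 3.38 to 4.20 in the wild type and 4.27 to 4.32 in the knockout. Kdr, a further endothelial marker, read 4.35 to 4.64 in the wild type and 3.94 to 4.61 in the knockout. In all, 16 of 20 endothelial and pericyte markers had a kept probe set, 7 of them higher and 9 lower in the knockout. Their mean log2 value was 5.21 to 5.39 in the wild type and 5.23 to 5.33 in the knockout.

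Set side by side, the A class had 11 kept probe sets higher and 5 lower in the knockout, and the B class 2 higher, 0 lower and 2 constant. Over all kept probe sets that varied, 50.6% were higher. With 1 probe set per gene, 3 of 4 A-class genes were higher, with a median log2 difference of 0.14, and 2 of 4 B-class genes were higher, with a median of 0.05 that includes the 2 constant genes. The median over all 10630 genes was -0.0015. Groups were apart for 5 A-class probe sets in the higher direction (8.96% of all) and 1 in the lower direction (7.25%), and for 0 B-class probe sets. The classes differ in number of probe sets, and only Ephb1 and Ephb3 of the B class could show a difference, so no comparison of the classes was tested. With any array left out the A-class median ran from 0.07 (without knockout replicate 2) to 0.20 (without knockout replicate 4), and the B-class median from 0.03 (without wild-type replicate 1) to 0.09 (without knockout replicate 5). The count of 11 ranged from 11 to 13 with any array left out, and was 11 without knockout replicate 2 and wild-type replicate 4.

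**Figure D4:**
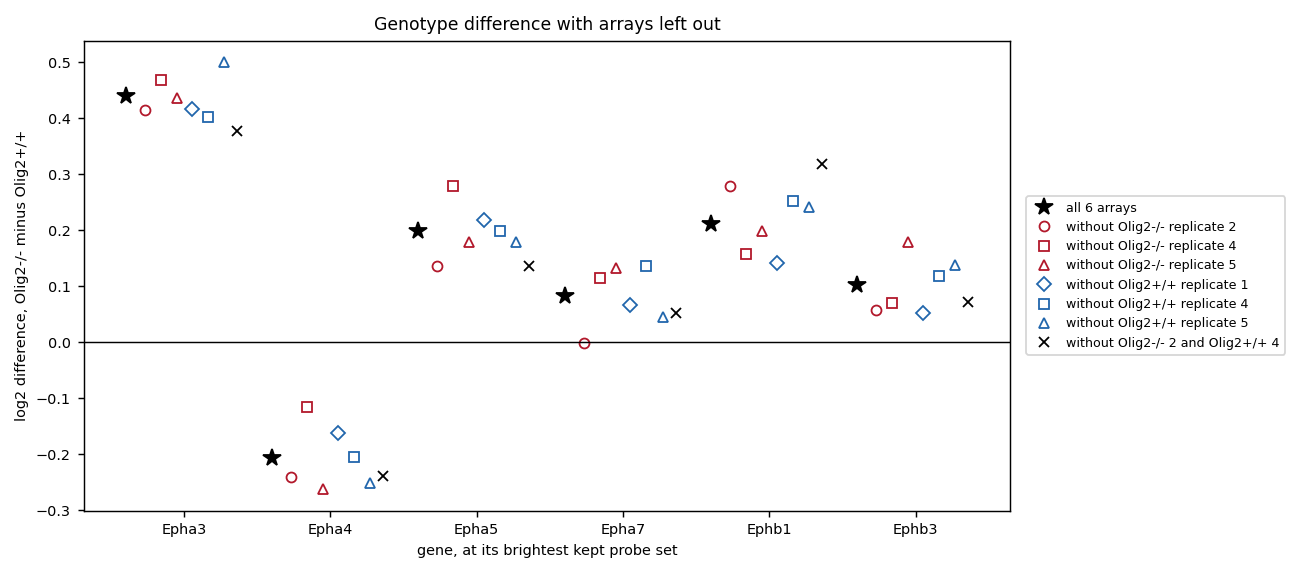
Log2 difference between Olig2-/- and Olig2+/+ arrays (vertical axis) at the brightest kept probe set of the 6 Eph receptors that varied (horizontal axis). Stars use all 6 arrays, open symbols leave out the array named and crosses leave out Olig2-/- replicate 2 and Olig2+/+ replicate 4. Epha3 stays between 0.38 and 0.50, Epha4 below 0, and Epha7 meets 0 without Olig2-/- replicate 2.

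Mean values of the thalamus and neuron marker lists were apart between genotypes, and those of the other lists overlapped. Of 18 thalamus markers, 16 had a kept probe set, 13 of them lower in the knockout. Their mean log2 value was 6.67 to 6.91 on wild-type arrays and 6.06 to 6.44 on knockout arrays, with no overlap. Of 16 neuronal markers, 15 were kept and 14 of them were lower, with means of 10.11 to 10.40 on wild-type arrays and of 10.05 or less on knockout arrays. Groups overlapped for markers of ventral telencephalon (8.13 to 8.31 in the wild type, 8.14 to 8.18 in the knockout), progenitors (9.53 to 9.61, 9.52 to 9.60) and the cell cycle (8.90 to 9.25, 9.11 to 9.17). Within the ventral telencephalon list, Lhx6 was apart and lower in the knockout (8.22 to 8.49) and Gsx2 apart and higher (6.38 to 6.74 against 5.94 to 6.17). Pallial markers overlapped as a list (7.73 to 7.85 in the wild type, 7.76 to 8.01 in the knockout), with 8 of 13 kept genes higher and 5 lower. The pallial neuron genes Tbr1 (8.32 to 8.61 in the knockout against 7.91 to 8.15) and Neurod6 (8.25 to 8.57 against 7.68 to 8.06) were apart and higher. The pallial marker Emx1 did not pass the filter (2.88 to 3.09 in the knockout against 2.93). Of 14 blood markers 6 were kept and all 6 were higher in the knockout on average, by a mean of 0.29 on the log2 scale, with overlapping list means (7.84 to 8.28 against 7.44 to 8.10). Microglial markers, 5 of 14 kept, read 4.05 to 4.23 against 3.92 to 4.19. The meninges and mesenchyme list was highest on knockout replicate 2, at 6.61 against 4.92 and 5.03 on the other knockout arrays, with 8 of its 20 genes kept and Col1a1 and Foxc1 not among them. The part of pallial, blood, meningeal or other cells in the Epha3 difference was not tested; without knockout replicate 2 that difference was 0.41.

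The ligands were measured on the same arrays. All 8 ephrin genes had a kept probe set, of which 6 were higher and 2 lower in the knockout, all short of the threshold (limma's smallest adjusted p = 0.511). Groups were apart and higher for 3, Efnb1, Efna1 and Efna5, against 8.45% of all genes. The nearest arrays of the genotypes were 0.30 apart for Efnb1, 0.03 for Efna1 and 0.01 for Efna5. Efnb1, which encodes a B-class ligand, was 0.53 higher. Its other probe sets were higher by 0.10, with overlapping groups, and by 0.83. Efnb2, the ligand of Ephb4 and Ephb1, was 0.48 higher with overlapping groups, and Efna2 differed by -0.35. Efna1 was 0.29 higher but dim (2.92 to 3.44 over the arrays), and Efna5 was 0.20 higher. The 4 Eph receptors that are not members (Epha1, Epha2, Epha6 and Epha10) had 6 probe sets, of which 0 passed the filter.

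Of 48 symbols of proteins that act with or downstream of Eph receptors, 43 had a kept probe set. Of these 18 were higher and 25 lower in the knockout, with a median of -0.04, and 0 passed limma's adjusted threshold, while 0 higher and 5 lower genes had an unadjusted p under 0.05 (3.99% and 3.91% of all genes). Groups were apart for 2 in the higher and 7 in the lower direction, against 8.45% and 7.96% of all genes. The 4 of lowest p were lower at their brightest probe sets: Vav3, a guanine nucleotide exchange factor, by -0.69 (5.63 ± 0.15 in the knockout against 6.32 ± 0.19, SD, n = 3 each), the tyrosine kinase Abl1 by -0.33, the adaptor Anks1 by -0.55 and the adaptor Nck2 by -0.26. A second probe set of Nck2 was 0.29 higher with groups apart, and those of Vav3 differed by -0.74 and 0.28.

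The genes whose log2 values followed Epha3 most closely over the 6 arrays were Ofd1 (Pearson r = 0.989), which encodes a centriolar protein, Zbtb11 (0.986), a zinc finger protein, and Ltbp3 (0.978), a binding protein of latent TGF-beta. These are the highest of 10591 correlations over 6 arrays that fall into 2 genotypes, and 14 genes exceeded 0.95. Ofd1 was 0.28 higher in the knockout, Zbtb11 0.27 and Ltbp3 0.34.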

How the data were processed

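The deposited values are log2 expression values per probe set of Affymetrix Mouse MOE430 2.0 arrays. The design text says that the authors used GCOS and MAS 5.0 on the images and GCRMA for quantile normalization, summary and the log2 step, and the submitters' processing notes list the same programs without versions. GCRMA leaves many dim probe sets at a lower limit, where differences are compressed, and quantile normalization hides a change shared by all genes.

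The platform's annotation gave 34945 probe sets 1 symbol and 932 several, and 9160 were unnamed here. All 22 Eph receptor probe sets matched RefSeq (GRCm38.p6) by gene ID. Genotypes were compared two-sided with lmFit and eBayes of limma (version 3.58.1, R 4.3.3) over the 22565 kept probe sets, and a gene stands for its brightest kept probe set unless stated. All 10 members are described. Of the other lists up to 4 genes of lowest p are named, and Efna5 because its groups were apart. The 3 genes most correlated with the member of lowest p are also named. The limma fit was checked on simulated arrays with independent noise. These lack the likeness of knockout replicate 2 to wild-type replicate 4, so that check does not show how well the p-values hold for the real arrays. Alternatives were other filters, repeated quantile normalization, median centring, another variance model (trended, robust), weighted arrays, a replicate block, gene means and arrays left out. The members, lists and alternatives were chosen with earlier results of these data known, so Epha3 and the ephrins are not independent evidence.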

Additional observations from a re-analysis of the deposited data

How the results depend on the processing

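No alternative gave a probe set past limma's adjusted threshold. The count of 2121 probe sets at unadjusted p under 0.05 was 3491 with array weights, 3276 when wild-type replicate 4 and knockout replicate 2 were dropped, and 1121 to 3490 with arrays left out singly. At the brightest probe sets, Epha3 (0.38 to 0.50), Epha5 (0.14 to 0.28), Ephb1 (0.14 to 0.32) and Ephb3 (0.01 to 0.18) kept their sign in all 15 alternatives. Epha3 was 0.62 higher with the mean of its probe sets, and its limma adjusted p ranged from 0.238 to 0.838. The other filters and the other variance model leave the difference of a probe set unchanged, so they could not alter a sign. The gene mean could not either for Ephb1 and Ephb3, which have 1 probe set each. Epha4 turned to 0.15 with the mean of its probe sets. Epha7 turned to -0.019 with the mean of its probe sets and to -0.017 with the replicate block, and ranged from -0.0016 to 0.14 with arrays left out. The B-class median was 0.10 with log2 above 4 on 3 arrays, and all 4 of its probe sets were higher with repeated quantile normalization (4) and with median centring (4), which shift the constant values. The gap of Epha5 1444690_at ranged from -0.16 to 0.054 and that of Epha7 1452380_at from -0.33 to 0.23 with arrays left out. The cause of these changes was not tested. The labels do not say what the replicate numbers mark, of which 4 and 5 are shared. Deviations from the group means correlated at -0.29 for number 4 and 0.32 for number 5, so the numbers were not taken as pairs. With the replicate block 2014 probe sets had an unadjusted p under 0.05, 0 passed the adjusted threshold, and Epha3 was 0.39 higher. In that model only replicates 4 and 5 inform the genotype difference, because knockout replicate 2 and wild-type replicate 1 have no counterpart in the other genotype.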
